A study of Homo sapiens with 12 samples.

Results

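Long non-coding RNAs (lncRNAs) with established gene names were examined in samples labelled by tissue as xenograft and by cell line as Hep3B, a human hepatocellular carcinoma line. The series' own design text speaks of Hep3B cells and names no tumour. The word tumour is used here as a reading of the tissue label xenograft. The groups were 3 bufotalin-treated and 3 control total RNA libraries, bufotalin being a bufadienolide, a cardiotonic steroid of toad venom. The sources used here give no dose, duration, host strain or host age, and do not say whether the libraries of a group came from separate animals. A p-value therefore reflects the spread among these libraries alone, and that spread may be technical. The authors' lncRNA table gave FPKM values (fragments scaled to transcript length and library size) for 536 transcripts that the authors had selected as different. From it were taken the transcripts whose gene name begins with LINC and a digit or carries -AS, -IT, -DT or -OT (antisense, intronic, divergent or overlapping to a named gene), plus MALAT1, HAR1A and DGCR5. IGFL2-AS1 was left out. These criteria chose 52 of the 536 transcripts, from 47 genes on 20 chromosomes. By name, 24 genes were antisense, 16 were LINC genes, 3 were divergent and 1 was intronic, and no overlapping (-OT) gene was listed. RefSeq names BOLA3-AS1, SRP14-AS1 and UBL7-AS1 as the divergent BOLA3-DT, SRP14-DT and UBL7-DT. The classes here follow the authors' names, so these genes are counted as antisense.

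lncRNAs are transcripts without a long open reading frame, and many stay in the nucleus, at or near the locus that makes them. MALAT1 is among the most abundant nuclear RNAs of human cells and concentrates in nuclear speckles, the bodies that store splicing factors. It carries no poly(A) tail: RNase P cuts its 3′ end, and the new end folds into a triple helix that METTL16 can bind. In liver cancer MALAT1 is known as a transcript often more abundant in tumour than in surrounding liver. Antisense and divergent lncRNAs are named for the protein-coding gene on the opposite strand that they overlap or whose start they face, and several are known to affect that gene.

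The DNA around the starts of 3 members with wide differences and no overlap between groups is shown. The gaps between 3 other members and the head-to-head gene beside them are shown too. The transcripts all appear in the results below, where those beside the gaps have weaker test results or none. All sequences are from the RefSeq tables of GRCh38.p14, written 5′ to 3′. Capitals mark GGGCGG (the GC box), CCAAT, or the complement of either. The windows are 300 bases long, mostly upstream of the annotated start, and lie at chr11:65497488-65497787 (plus strand) for MALAT1, chr5:134506302-134506601 (plus) for LINC01843 and chr20:63101042-63101341 (plus) for HAR1A. The MALAT1 window is 73.7% G or C and holds 5 GC boxes. The LINC01843 window is 64.7% G or C, with 1 GC box and 1 CCAAT. The HAR1A window is 66.3% G or C and has neither, and the listed HAR1A transcript begins downstream of it. The gaps lie at chr6:2245606-2245767 (plus) between GMDS-DT and GMDS, chr2:74147913-74148038 (plus) between BOLA3-AS1 and BOLA3, and chr1:93345820-93345906 (minus) between CCDC18-AS1 and DR1.
MALAT1 window: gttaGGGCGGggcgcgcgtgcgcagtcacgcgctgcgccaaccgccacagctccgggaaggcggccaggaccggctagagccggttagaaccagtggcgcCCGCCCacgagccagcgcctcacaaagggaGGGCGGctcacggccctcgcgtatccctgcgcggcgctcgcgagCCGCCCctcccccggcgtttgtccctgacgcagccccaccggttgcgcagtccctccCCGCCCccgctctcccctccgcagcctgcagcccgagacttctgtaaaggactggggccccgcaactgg
LINC01843 window: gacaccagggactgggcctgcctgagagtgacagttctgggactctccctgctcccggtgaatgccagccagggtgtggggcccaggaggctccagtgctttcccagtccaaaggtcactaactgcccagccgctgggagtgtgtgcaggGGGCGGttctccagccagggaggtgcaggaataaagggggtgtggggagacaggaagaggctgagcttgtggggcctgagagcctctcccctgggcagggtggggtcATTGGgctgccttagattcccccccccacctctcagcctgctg
HAR1A window: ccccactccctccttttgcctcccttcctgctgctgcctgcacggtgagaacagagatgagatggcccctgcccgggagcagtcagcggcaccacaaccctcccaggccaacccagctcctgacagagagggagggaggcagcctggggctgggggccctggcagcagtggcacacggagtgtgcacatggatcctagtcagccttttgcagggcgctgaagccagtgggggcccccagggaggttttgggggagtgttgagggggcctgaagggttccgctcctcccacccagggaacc
GMDS-DT to GMDS gap: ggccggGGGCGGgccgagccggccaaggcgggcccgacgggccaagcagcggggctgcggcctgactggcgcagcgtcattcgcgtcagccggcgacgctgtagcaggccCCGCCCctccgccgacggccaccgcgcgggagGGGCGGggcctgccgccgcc
BOLA3-AS1 to BOLA3 gap: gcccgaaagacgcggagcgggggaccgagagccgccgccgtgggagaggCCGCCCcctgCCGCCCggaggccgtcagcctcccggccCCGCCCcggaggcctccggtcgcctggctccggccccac
CCDC18-AS1 to DR1 gap: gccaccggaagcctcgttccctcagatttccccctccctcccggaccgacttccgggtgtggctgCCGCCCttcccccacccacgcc

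The gaps are 162, 126 and 87 bases long, are 82.7%, 82.5% and 71.3% G or C, and hold 3, 3 and 1 GC boxes. Among 45 RefSeq windows found for 38 of the member genes, 66.7% held GGGCGG on either strand, against 45% of the 35116 windows of 27305 genes in the whole table. CCAAT was in 37.8% of member windows and 34.6% of all windows. TATAAA was in 8.89% and 11.5%, CACGTG in 6.67% and 7.26%, TGACTCA in 4.44% and 4.95%, and TGACGTCA in 4.44% and 1.85%. None of these 6 motifs contains another, and both strands were searched. The median G and C content was 65% in member windows and 58.7% in all windows. The listed 5′ end lay inside a window for 22 of the 43 transcripts whose gene had one, so for the others the window belongs to another start of the gene. Windows of the other transcripts in the authors' lncRNA table were not counted, so the comparison is with RefSeq genes at large. These are counts of letters, not of bound sites.

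Most named lncRNAs had a lower mean level in bufotalin tumours. The mean FPKM was lower in bufotalin than in control for 42 of the 52 transcripts (80.8%) and higher for 10, while it was lower for 284 of the other 484 transcripts of the table (58.7%). In bufotalin, 35 of the 52 (67.3%) were listed at exactly 0 in all 3 libraries, as were 40.7% of the other transcripts. In control, 7 of the 52 (13.5%) were listed at 0 in all 3 libraries, as were 28.5% of the others. The remaining 10 members were above 0 in both groups, though some were at 0 in part of the libraries of a group. The phrase is used in that sense below. A value of 0 here is the authors' listed value, and its detection limit is unknown, since FPKM values carry no depth.

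limma on log2(FPKM + 0.1), fitted and adjusted over all transcripts averaging 0.1 FPKM or more, tested 43 of the 52 members. It called 26 lower and 4 higher in bufotalin at an adjusted p under 0.05, and 13 were not called. Of the 465 transcripts tested in all, 341 were called (73.3%), 44.1% of those tested lower and 29.2% higher. The 30 of 43 members called lay near that background, while their split leaned further to lower values, a difference that was not tested. Because the authors had already chosen these transcripts as different, none of these counts is independent evidence. The groups did not overlap for 40 of the 52 members, 33 lower and 7 higher in bufotalin, against 81.2% of all listed transcripts (51.1% lower and 30% higher). The 33 include BOLA3-AS1-201 and WDFY3-AS2-223, both uncalled, each with a control library at 1e-06 FPKM. The median log2 fold change was -2.11 over the 43 members tested and -1.74 over all 465 transcripts tested. Both depended on the settings: they were -4.99 and -3.98 with a pseudocount of 0.01, -0.46 and -0.35 with a pseudocount of 1, and -3.50 and 2.25 with a minimum mean of 0.5 FPKM. With the main settings the median was -2.51 over the 10 members above 0 in both groups and -1.94 over all 151 such transcripts that were tested.

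**Figure D1:**
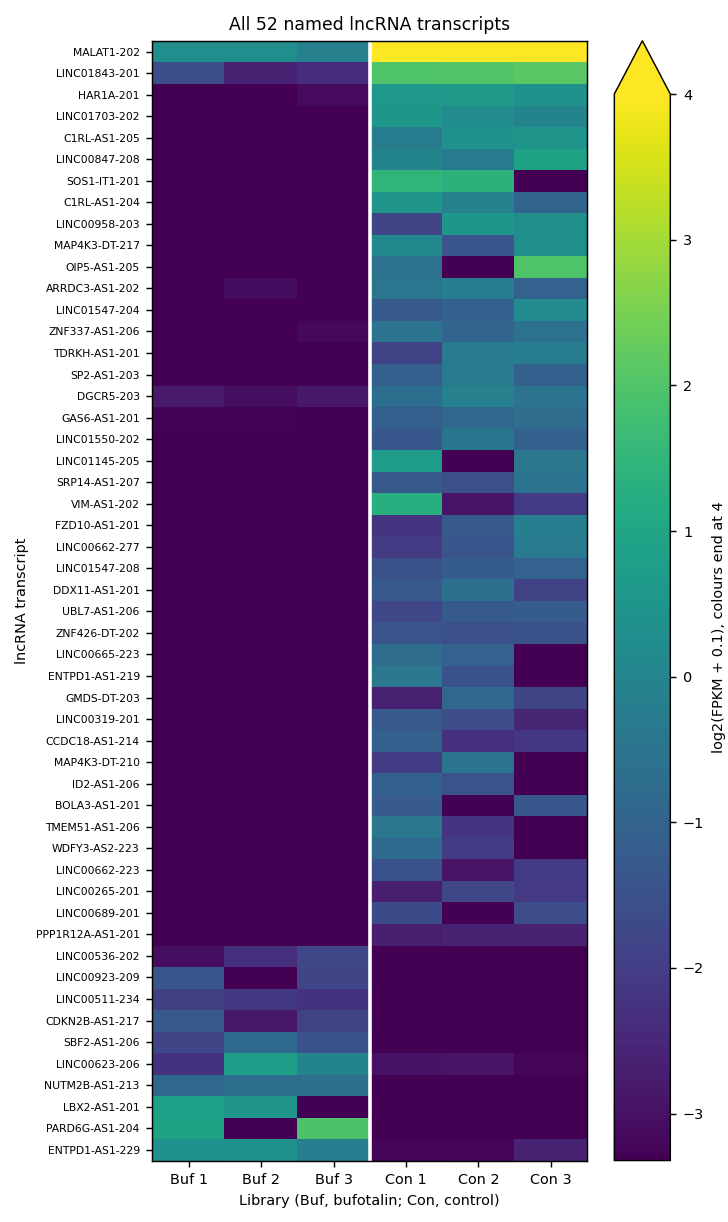
All 52 named lncRNA transcripts (rows) in the 3 bufotalin and 3 control libraries (columns), coloured by log2(FPKM + 0.1); the darkest cells are listed at 0. The block at the lower left holds the 10 transcripts higher in bufotalin, and the 42 others are brighter on the control side, with MALAT1 beyond the end of the colour scale in all 3 control libraries.

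The member transcripts summed to 7.65, 6.60 and 7.80 FPKM in bufotalin replicates 1, 2 and 3, and to 290.2, 243 and 138 FPKM in control replicates 1, 2 and 3. Without MALAT1 the sums were 6.54, 5.50 and 6.99 FPKM in bufotalin, and 27.2, 23.3 and 26.0 FPKM in control. MALAT1 therefore made up most of the control sum and of its spread, while the remaining members together were close in level among the 3 control libraries. Of the 52 members, 38, 39 and 38 were listed at 0 in the bufotalin libraries, and 8, 10 and 14 in the control libraries.

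MALAT1 was the most abundant lncRNA transcript of the table in every control library and was far lower in bufotalin. MALAT1-202 (chr11:65497762-65506469) stood at 1.11, 1.10 and 0.808 FPKM in bufotalin, and at 263, 219.6 and 112 FPKM in control. The bufotalin libraries lay close together, and the lowest control library, replicate 3, still lay far above them. The means were 1.01 ± 0.172 FPKM in bufotalin and 198 ± 77.6 FPKM in control (SD, n = 3 each, as for every ± below), a 197-fold lower level. The fitted log2 fold change was -7.41 (SE 0.41, adjusted p = 0.000202). MALAT1 took 0.194%, 0.212% and 0.184% of all FPKM in the lncRNA table in bufotalin and 34.0%, 30.7% and 21.5% in control. Its rank by FPKM was 59, 70 and 84 in the bufotalin libraries and 1 in each control library. Other MALAT1 transcripts were not analysed here, so the values speak for this transcript and not for the sum over the gene. In bulk tumour RNA, fewer cells with a transcript and less of it per cell cannot be told apart.

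The other members with names of their own were both lower. HAR1A, a lncRNA of a human accelerated region known from the developing brain, was listed at 0, 0 and 0.0159 FPKM in bufotalin for HAR1A-201 (chr20:63102205-63104386). In control it stood at 1.39, 1.44 and 1.19 FPKM, so its groups were widely separated (log2 fold change -3.78, SE 0.21, adjusted p = 0.000202). DGCR5, from the DiGeorge syndrome critical region, stood at 0.0447, 0.0197 and 0.0425 FPKM in bufotalin for DGCR5-203 (chr22:18970514-18994628) and at 0.522, 0.806 and 0.592 FPKM in control. Its means were 0.0357 ± 0.0138 FPKM in bufotalin and 0.640 ± 0.148 FPKM in control (SD, n = 3 each), 17.9-fold lower (log2 fold change -2.43, SE 0.24, adjusted p = 0.000472). The fitted value is smaller than the ratio of the means because the added constant weighs on low levels, as it does for every low member.

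**Figure D2:**
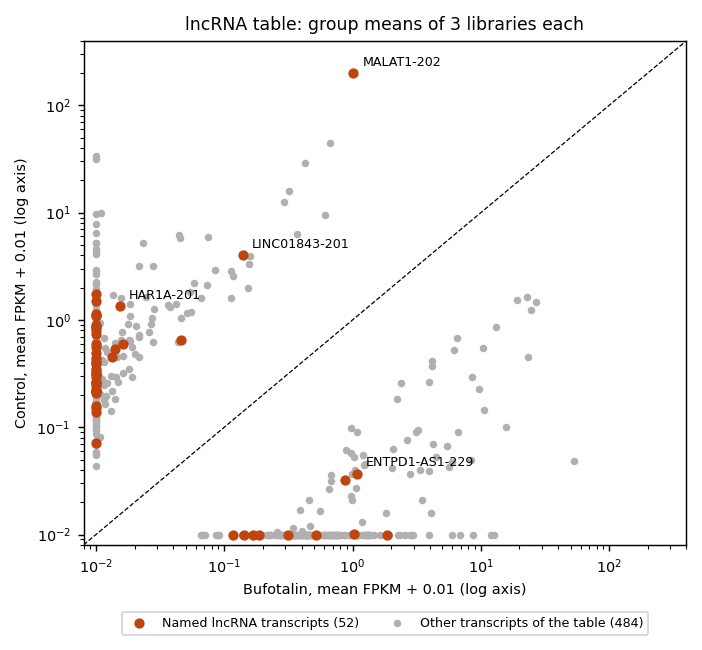
Mean FPKM of each transcript of the lncRNA table in bufotalin (horizontal) and control (vertical), both on log axes after a small constant was added so that values of 0 lie on the left and lower edges; orange points are the 52 named lncRNAs, grey points the other 484, and the dashed line marks equal means. MALAT1-202 has the highest control mean of all (198 FPKM against 1.01 FPKM in bufotalin), and 42 of the 52 orange points lie above the line.

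The LINC genes contributed 18 transcripts of 16 genes, of which 14 had a lower and 4 a higher mean in bufotalin. limma called 9 lower and 1 higher, against 44.1% lower and 29.2% higher of all transcripts tested. It left 2 LINC transcripts uncalled, and 6 fell under the minimum mean. LINC01843-201 (chr5:134506552-134509229) was the most abundant, at 0.239, 0.0593 and 0.0928 FPKM in bufotalin and 3.89, 3.91 and 4.29 FPKM in control. The control libraries lay close together, and the means were 0.130 ± 0.0953 FPKM in bufotalin and 4.03 ± 0.226 FPKM in control (SD, n = 3 each), 31.0-fold lower, or 53.0-fold without bufotalin replicate 1. Its log2 fold change was -4.24 (SE 0.36, adjusted p = 0.000280).

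Most other LINC transcripts were listed at 0 in all 3 bufotalin libraries, so no fold is given for them. LINC01703-202 stood at 1.37, 1.07 and 0.894 FPKM in control (adjusted p = 0.000202). LINC00847-208 stood at 0.886, 0.694 and 1.76 FPKM there (adjusted p = 0.000531). LINC00958-203 was less even, at 0.186, 1.33 and 1.15 FPKM in control (adjusted p = 0.0081). LINC01550-202, LINC00319-201, LINC01547-204, LINC01547-208 and LINC00662-277 were also called lower, with control values between 0.0724 and 1.06 FPKM. Of these, LINC00662-277 (adjusted p = 0.00907) was no longer called after quantile normalization or with a pseudocount of 1. LINC01145-205 and LINC00665-223, likewise listed at 0 in bufotalin, were not called, because 1 control library of each was also at 0. LINC01145-205 stood at 1.56, 0 and 0.646 FPKM in control (adjusted p = 0.0853), and was called without control replicate 2. LINC00665-223 stood at 0.515, 0.390 and 0 FPKM in control (adjusted p = 0.0845), and was called without control replicate 3. LINC00662-223, LINC00265-201 and LINC00689-201 had too low a mean to be tested, with control values of 0 to 0.257 FPKM.

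The antisense genes gave 26 transcripts of 24 genes, 20 with a lower and 6 with a higher mean in bufotalin. limma called 11 lower and 3 higher, against 44.1% lower and 29.2% higher of all transcripts tested. It left 9 antisense transcripts uncalled, and 3 were not tested. Among antisense transcripts above 0 in both groups, ARRDC3-AS1-202 (chr5:91380652-91422963) was listed at 0, 0.0185 and 0 FPKM in bufotalin. It stood at 0.628, 0.747 and 0.389 FPKM in control (log2 fold change -2.66, SE 0.28, adjusted p = 0.000528). ZNF337-AS1-206 (chr20:25624059-25677052) was at 0, 0 and 0.0120 FPKM in bufotalin and 0.586, 0.423 and 0.566 FPKM in control (log2 fold change -2.58, SE 0.22, adjusted p = 0.000280). In both, the lowest control library was well above the highest bufotalin library. GAS6-AS1-201 (chr13:113815630-113845744) was at 0.00461, 0.00558 and 0 FPKM in bufotalin and 0.366, 0.451 and 0.509 FPKM in control (log2 fold change -2.38, SE 0.21, adjusted p = 0.000344).

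The antisense transcripts listed at 0 in all bufotalin libraries and called lower were C1RL-AS1-205, C1RL-AS1-204, TDRKH-AS1-201, SP2-AS1-203, SRP14-AS1-207, FZD10-AS1-201, DDX11-AS1-201 and UBL7-AS1-206. TDRKH-AS1-201 stood at 0.169, 0.732 and 0.749 FPKM in control (adjusted p = 0.00544). SRP14-AS1-207 and DDX11-AS1-201 stood between 0.173 and 0.590 FPKM in control. SP2-AS1-203 stood at 0.366, 0.704 and 0.378 FPKM in control (adjusted p = 0.000719). UBL7-AS1-206 was among the more even, at 0.196, 0.320 and 0.337 FPKM in control (adjusted p = 0.000796). FZD10-AS1-201 ran from 0.114 to 0.781 FPKM in control (adjusted p = 0.0139), and its call ended after quantile normalization or with a pseudocount of 1.

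Several antisense transcripts at 0 in bufotalin varied too much between control libraries to be called. OIP5-AS1, known as Cyrano, is a conserved lncRNA with a near-perfect site for miR-7. OIP5-AS1-205 stood at 0.565, 0 and 3.89 FPKM in control (adjusted p = 0.103, called without control replicate 2), so its control libraries ranged from a listed 0 to a level near that of LINC01843. VIM-AS1-202 stood at 2.35, 0.0327 and 0.148 FPKM in control (adjusted p = 0.119), high in replicate 1 alone, and was called with a pseudocount of 0.01. BOLA3-AS1-201 stood at 0.326, 1e-06 and 0.298 FPKM in control (adjusted p = 0.0905) and was called without control replicate 2. ID2-AS1-206, TMEM51-AS1-206 and WDFY3-AS2-223 were each at or next to 0 in control replicate 3 and were called only when that library was left out, among the settings run. CCDC18-AS1-214 and PPP1R12A-AS1-201 were at 0 in bufotalin, were above 0 in all control libraries (0.0520 to 0.371 FPKM) and were under the minimum mean.

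The divergent genes all had lower means in bufotalin, with each of their 4 transcripts listed at 0 in all 3 bufotalin libraries. ZNF426-DT-202 was the steadiest member of this kind, at 0.265, 0.242 and 0.250 FPKM in control (adjusted p = 0.000480). GMDS-DT-203 (chr6:2245768-2399896) stood at 0.0552, 0.450 and 0.189 FPKM in control (adjusted p = 0.0352). Its call was fragile and ended when any bufotalin library or control replicate 3 was left out, after quantile normalization and with a pseudocount of 1. The intronic SOS1-IT1-201, inside the gene of a Ras exchange factor, was at 0 in bufotalin and at 2.66, 2.49 and 0 FPKM in control, and was not called (adjusted p = 0.0827). It was the most abundant member after MALAT1 and LINC01843 in control replicates 1 and 2, and was called without control replicate 3.

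Over the 42 members with lower means, exact zeros in control were uneven, with none in control replicate 1, 3 in replicate 2 and 6 in replicate 3. The 35 members at 0 in bufotalin had control means of 0.0607 to 1.72 FPKM with a median of 0.340 FPKM. Of these 35, 26 were above 0 in all 3 control libraries, BOLA3-AS1-201 and WDFY3-AS2-223 by only 1e-06 FPKM in 1 library. The other 9 were also at 0 in 1 control library. Zeros within a group also occur at high levels in this table. Of 79 transcripts with a control mean of at least 1 FPKM, 14 were listed at 0 in at least 1 control library. SET-208, which is no member and was chosen after its values were seen, stood at 100.4 FPKM in control replicate 1 and at 0 in the other 5 libraries. How the authors' software came to such values was not tested.

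Of the 10 members with higher means in bufotalin, ENTPD1-AS1-229 (chr10:95873085-95907775) was the only one called with values above 0 in every library of both groups and a call that held in every setting where it was tested. It stood at 1.205, 1.23 and 0.768 FPKM in bufotalin, and at 0.00825, 0.00856 and 0.0642 FPKM in control. The means were 1.07 ± 0.260 FPKM in bufotalin and 0.0270 ± 0.0322 FPKM in control (SD, n = 3 each), 39.6-fold higher (log2 fold change 3.20, SE 0.30, adjusted p = 0.000417). Control replicate 3 weighed on that ratio, which was 127-fold without it. NUTM2B-AS1-213 stood at 0.455, 0.520 and 0.544 FPKM in bufotalin and was listed at 0 in all control libraries (adjusted p = 0.000215). SBF2-AS1-206 stood at 0.190, 0.472 and 0.258 FPKM in bufotalin and was listed at 0 in control (adjusted p = 0.00197).

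LINC00623-206 stood at 0.112, 1.59 and 0.886 FPKM in bufotalin, against 0.0291, 0.0311 and 0.00700 FPKM in control (log2 fold change 2.54, SE 0.80, adjusted p = 0.0311). The groups did not overlap, but its call ended without bufotalin replicate 2 or 3, without any of the control libraries, and with a pseudocount of 1. Another 2 were high but absent from a library and not called (adjusted p = 0.0827 for each). PARD6G-AS1-204 stood at 1.79, 0 and 3.70 FPKM in bufotalin and at 0 in control, and LBX2-AS1-201 at 1.72, 1.31 and 0 FPKM in bufotalin and 0, 0.000293 and 0 FPKM in control. Each was called when the bufotalin library at 0 was left out. The last 4 were listed at 0 in control and had too low a mean to be tested. LINC00511-234 stood at 0.160, 0.126 and 0.111 FPKM in bufotalin, and CDKN2B-AS1-217 at 0.312, 0.0387 and 0.174 FPKM. LINC00536-202 and LINC00923-209 reached at most 0.197 and 0.288 FPKM in bufotalin.

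**Figure D3:**
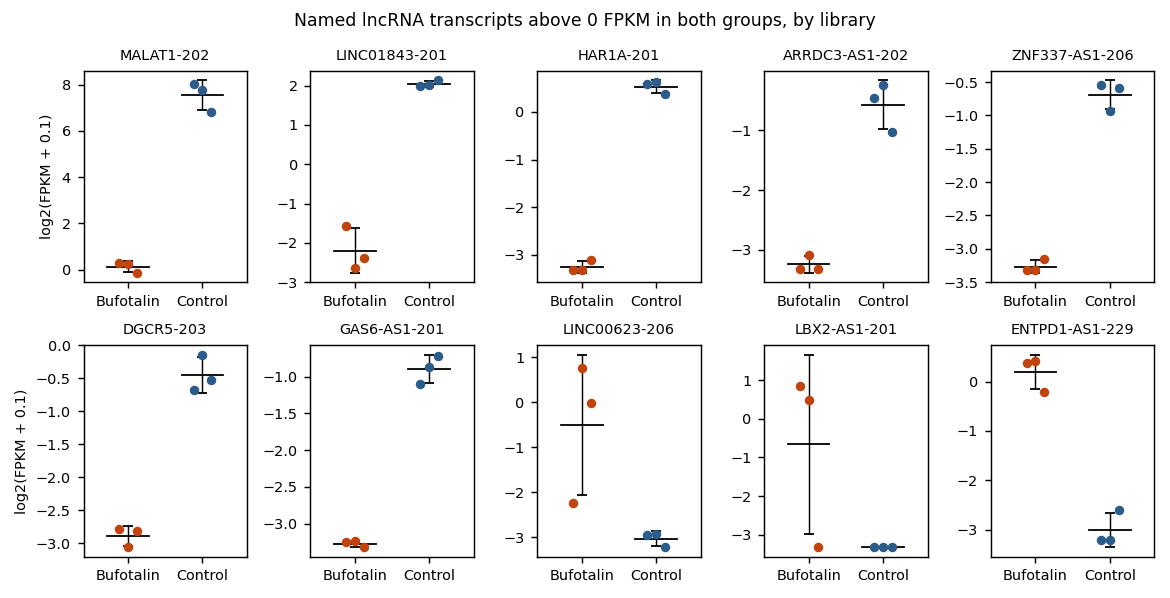
The 10 named lncRNA transcripts above 0 in both groups, 1 panel each, as log2(FPKM + 0.1) per library (points), with the mean and SD of the 3 bufotalin (left) and 3 control (right) libraries; the vertical scale differs between panels. The 7 transcripts from MALAT1-202 to GAS6-AS1-201 lie lower in bufotalin without overlap, ENTPD1-AS1-229 and LINC00623-206 lie higher without overlap, and LBX2-AS1-201 overlaps.

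A pair of transcripts was listed for each of 5 genes, which shows how far a gene name can be read as 1 value. The ENTPD1-AS1 transcripts went opposite ways. ENTPD1-AS1-219 (chr10:95873167-95907903), almost coextensive with the transcript that was higher, was listed at 0 in all bufotalin libraries and at 0.645, 0.259 and 0 FPKM in control. It was not called (adjusted p = 0.0946) except without control replicate 3, and no test of the difference between the transcripts was run. The C1RL-AS1 pair was lower together: in control C1RL-AS1-205 stood at 0.746, 1.21 and 1.28 FPKM (adjusted p = 0.000215) and C1RL-AS1-204 at 1.28, 0.838 and 0.419 FPKM (adjusted p = 0.000996). The control library that was lowest for C1RL-AS1-205 was the highest for C1RL-AS1-204, and the transcripts overlap in the genome. The LINC01547 transcripts, nearly identical in extent, stood at 0.321, 0.383 and 1.06 FPKM for LINC01547-204 and 0.253, 0.335 and 0.390 FPKM for LINC01547-208 in control. MAP4K3-DT-217 was called (0.970, 0.283 and 1.14 FPKM in control, adjusted p = 0.00265) and MAP4K3-DT-210 was not (0.147, 0.606 and 0 FPKM in control, adjusted p = 0.125) except without control replicate 3. For LINC00662, LINC00662-223 stood at 0.257, 0.0309 and 0.139 FPKM in control and the called LINC00662-277 at 0.144, 0.278 and 0.734 FPKM. Overlapping transcripts share reads, so the split between transcripts of a gene is the authors' estimate.

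RefSeq held 46 of the 47 genes, with a median of 2 transcripts per gene, up to 32 for CDKN2B-AS1, and more than 1 for 26 genes. The listed loci spanned 882 to 206734 bases, with a median of 20093. The median level of the members over the 6 libraries was 0.208 FPKM, against 0.275 FPKM for all transcripts of the table. Apart from MALAT1 and LINC01843, whose means over the 6 libraries were 99.6 and 2.08 FPKM, no member averaged 1 FPKM.

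The protein-coding genes that the antisense, intronic and divergent lncRNAs are named for were looked up in the authors' mRNA table, which also holds only genes the authors selected as different. Of the 28 lncRNA genes of this kind, 12 had their partner gene there. limma on log2(FPKM + 1) called all 12 partners, 10 lower and 2 higher in bufotalin, where 93.2% of the 4273 genes tested were called (48.8% lower and 44.3% higher). The groups overlapped for none of the 12, and 92.4% of all listed genes likewise did not overlap. Among the 10 lncRNAs with lower means, 8 had a lower and 2 a higher partner. Both lncRNAs with higher means had a lower partner. For 7 of the 12 pairs the whole loci overlap, introns included, and whether exons overlap was not examined. Library preparation was not stated to keep strand, so reads from stretches shared by a lncRNA and its partner may not be told apart.

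In 8 pairs the partner was called lower and the lncRNA had a lower mean, but BOLA3-AS1-201 and WDFY3-AS2-223 were themselves not called and CCDC18-AS1-214 was not tested. ARRDC3, an arrestin-like adaptor in receptor trafficking, stood at 1.52, 1.36 and 1.795 FPKM in bufotalin and 8.18, 8.49 and 8.84 FPKM in control, beside ARRDC3-AS1-202, called lower (log2 fold change -1.90, SE 0.11, adjusted p = 1.64e-06). FZD10, a Wnt receptor, stood at 0.847, 0.627 and 0.856 FPKM in bufotalin and 5.44, 5.43 and 5.49 FPKM in control, and its start lies 235 bases from FZD10-AS1-201 (log2 fold change -1.86, SE 0.11, adjusted p = 1.45e-06). Their means were 5.46-fold and 7.02-fold lower, with groups far apart. BOLA3 acts in mitochondrial iron-sulphur cluster assembly and lies across the 126-base gap from BOLA3-AS1. It averaged 5.72 ± 1.40 FPKM in bufotalin and 18.5 ± 4.37 FPKM in control (adjusted p = 8.54e-05). C1RL, a complement-type serine protease, averaged 1.42 ± 0.406 FPKM in bufotalin and 5.72 ± 0.361 FPKM in control (adjusted p = 1.22e-05). GAS6, the ligand of the AXL receptor family, averaged 3.96 ± 0.752 FPKM in bufotalin and 10.3 ± 1.27 FPKM in control (adjusted p = 4.52e-05). All of these were lower in each bufotalin library than in any control library.

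GMDS, the first enzyme of GDP-fucose synthesis, averaged 8.79 ± 0.651 FPKM in bufotalin and 20.1 ± 2.05 FPKM in control, across the 162-base gap from GMDS-DT-203 (adjusted p = 2.21e-05). WDFY3, a scaffold of selective autophagy, averaged 3.37 ± 0.888 FPKM in bufotalin and 7.26 ± 1.00 FPKM in control (adjusted p = 0.000403). CCDC18 averaged 2.78 ± 0.551 FPKM in bufotalin and 5.70 ± 2.09 FPKM in control (SD, n = 3 each, adjusted p = 0.00663), and its call ended after quantile normalization. It lies 57996 bases from CCDC18-AS1-214, whose immediate neighbour is DR1.

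In the other 4 pairs the partner and the lncRNA mean differed in opposite senses, but of these lncRNAs limma called SBF2-AS1-206 alone. ID2-AS1-206 and TMEM51-AS1-206 were not called, and CDKN2B-AS1-217 was not tested. CDKN2B, the p15 inhibitor of CDK4 and CDK6, stood at 0.483, 0.406 and 0.517 FPKM in bufotalin and 1.38, 1.49 and 1.52 FPKM in control, while CDKN2B-AS1-217, a transcript of the ANRIL locus, was higher in mean (log2 fold change of CDKN2B -0.75, SE 0.10, adjusted p = 6.58e-05). That call ended after quantile normalization. SBF2, a myotubularin-related protein, averaged 12.8 ± 3.01 FPKM in bufotalin and 30.0 ± 4.19 FPKM in control, with SBF2-AS1-206 called higher (adjusted p = 0.000127). ID2, an inhibitor of basic helix-loop-helix factors, averaged 11.7 ± 1.26 FPKM in bufotalin and 6.27 ± 0.876 FPKM in control, with ID2-AS1-206 at 0 in bufotalin (adjusted p = 0.000266). TMEM51 stood at 10.1, 7.08 and 2.99 FPKM in bufotalin and 2.68, 2.57 and 2.79 FPKM in control (adjusted p = 0.0310). Its call ended without bufotalin replicate 1 or 2 or without any of the control libraries.

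**Figure D4:**
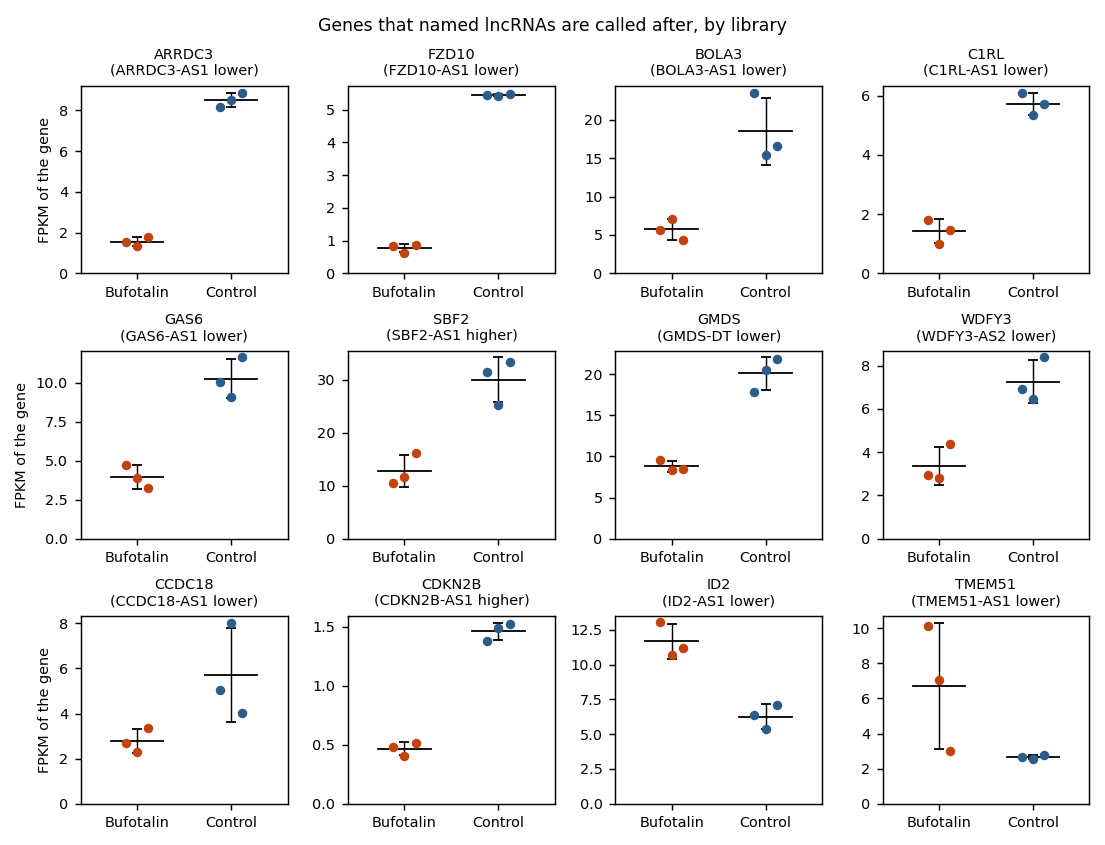
FPKM of the 12 protein-coding genes that named lncRNAs are called after, per library (points) with mean and SD, bufotalin left and control right in each panel; the words in brackets give the direction of the lncRNA's own mean in bufotalin. The first 10 genes lie lower in bufotalin, ID2 and TMEM51 lie higher, and TMEM51 is spread from 2.99 to 10.1 FPKM in bufotalin.

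Beyond these partners, 20 genes of the mRNA table lay within 50 kb of 13 member genes, of which limma called 9 lower and 6 higher, 1 was not called and 4 were not tested. Of all mRNA genes tested 93.2% were called (48.8% lower and 44.3% higher), so the neighbours lay near that background. DR1, a repressor subunit that binds the TATA-binding protein, faces CCDC18-AS1-214 across the 87-base gap and stood at 23.3, 25.3 and 24.6 FPKM in bufotalin and 18.4, 17.6 and 17.7 FPKM in control (log2 fold change 0.43, SE 0.10, adjusted p = 0.00276). It was higher in each bufotalin library than in any control library.

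LTBP3, which binds latent TGF-beta and lies 32335 bases from MALAT1, averaged 4.74 ± 0.360 FPKM in bufotalin and 9.45 ± 1.95 FPKM in control (adjusted p = 0.000353). It was lower by far less than MALAT1. Near the lncRNAs with higher means, TTC31, the listed gene closest to LBX2-AS1-201 at 7708 bases, averaged 1.70 ± 0.370 FPKM in bufotalin and 4.13 ± 0.483 FPKM in control (adjusted p = 0.000144), a call that ended after quantile normalization. SWAP70 averaged 46.2 ± 2.31 FPKM in bufotalin and 21.1 ± 1.196 FPKM in control, 22737 bases from SBF2-AS1-206 (adjusted p = 1.28e-05). AUP1, an endoplasmic reticulum and lipid droplet protein, averaged 73.7 ± 5.75 FPKM in bufotalin and 29.1 ± 1.17 FPKM in control, 21966 bases from LBX2-AS1-201 (adjusted p = 5.74e-06).

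Genes that process, bind or share nuclear bodies with MALAT1-type RNAs were read from a list of 53, of which 17 were in the mRNA table. In bufotalin 14 of the 17 rose and the other 3 were not called, where 93.2% of all genes tested were called and 44.3% were called higher. The median log2 fold change of the 17 was 0.50, against 0.13 for all 4273 genes tested. The median of all genes depended on the settings: it was 0.49 (0.82 for the 17) with libraries scaled to equal medians, -0.14 (0.50) with no FPKM minimum, and -0.17, -0.06 and -0.27 (0.58, 0.47 and 0.47) without bufotalin replicate 1, 2 and 3. CLK1, a kinase of SR splicing factors, stood at 29.8, 33.4 and 33.0 FPKM in bufotalin and 19.1, 16.3 and 18.6 FPKM in control (log2 fold change 0.80, SE 0.11, adjusted p = 0.000108). SRSF3, an SR splicing factor, stood at 53.5, 44.3 and 47.1 FPKM in bufotalin and 28.7, 27.3 and 19.9 FPKM in control (log2 fold change 0.92, SE 0.15, adjusted p = 0.000315). Both were higher in each bufotalin library than in any control library. RPP25, a protein of RNase P and RNase MRP, averaged 20.6 ± 1.42 FPKM in bufotalin and 13.2 ± 1.66 FPKM in control (adjusted p = 0.00114). SFPQ, a paraspeckle protein, averaged 91.5 ± 7.07 FPKM in bufotalin and 61.8 ± 6.93 FPKM in control (adjusted p = 0.00171), and its call ended after quantile normalization. CLK4, PABPN1, RPP30, RBM25, POP1, ZCCHC8, SRSF1, SRSF5 and PNN were among the others that rose, with log2 fold changes of 0.42 to 0.63. The calls for SRSF1, SRSF5 and PNN ended after quantile normalization and without bufotalin replicate 2 or 3, and those for SRSF5 and PNN also without control replicate 3.

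The uncalled members of that list included the protein known to bind the MALAT1 triple helix. METTL16 stood at 5.64, 7.71 and 7.45 FPKM in bufotalin and 8.57, 14.2 and 7.50 FPKM in control (log2 fold change -0.45, SE 0.22, adjusted p = 0.0736), and it was called lower without control replicate 3. SON, a scaffold of nuclear speckles, averaged 78.6 ± 8.46 FPKM in bufotalin and 65.1 ± 11.5 FPKM in control (adjusted p = 0.0959). HNRNPK averaged 272 ± 35.5 FPKM in bufotalin and 219 ± 22.9 FPKM in control (adjusted p = 0.0592). The sign of both SON and HNRNPK turned after quantile normalization, to -0.027 and -0.086 on the log2 scale.

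A list of 55 lncRNAs known from liver cancer had 8 in the table, each with 1 transcript. Of the 5 that could be tested, 4 were called lower, where 73.3% of all transcripts tested were called and 44.1% were called lower. The 4 were TP53TG1, a lncRNA induced by p53, and MALAT1, HAR1A and DGCR5, which are members already described above. The list was chosen with earlier results of these data known, so its count is not independent evidence. With no FPKM minimum 7 of the 8 were called, 5 lower and 2 higher. Of all 536 transcripts, 403 were called in that setting, 253 lower and 150 higher. TP53TG1-202 was listed at 0 in all bufotalin libraries and stood at 0.292, 0.320 and 1.01 FPKM in control (adjusted p = 0.0038). SNHG16-203 was at 0 in bufotalin and at 0.567, 0.507 and 0 FPKM in control (adjusted p = 0.0827, not called except without control replicate 3). LINC00511-234, PVT1-354 and FTX-222 were not tested with the main settings. PVT1-354 stood at 0.198, 0.0872 and 0.206 FPKM in bufotalin and at 0 in control, as LINC00511-234 did, while FTX-222 was at 0 in bufotalin and at 0.0966, 0.0614 and 0.0348 FPKM in control.

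The transcripts whose pattern over the 6 libraries was most like that of MALAT1-202, by Pearson correlation of log2(FPKM + 0.1), were AC136604.3-203, AP000439.2-202 and RGS11-208, each with r = 0.999. None is a named lncRNA of the set. AP000439.2-202 was at 0 in bufotalin and at 1.79, 1.61 and 1.00 FPKM in control, with the same order of control libraries as MALAT1. With 2 separated groups of 3 libraries, such values mostly restate the difference between the groups.

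The labelled material was checked against marker genes in the mRNA table, which lists only genes selected as different. The values are of human genes, and whether host or tumour cells of a xenograft gave these levels was not tested. Of 20 hepatocyte and liver tumour markers 3 were listed, 1 called higher and 2 not tested, and their summed level was 1.56 to 2.59 FPKM in bufotalin and 0.282 to 0.576 FPKM in control, with TF at 0 in all control libraries. The other liver markers were not listed, so the table neither shows nor denies the liver origin of the cells. Of 12 fibroblast and contractile markers 8 were listed, of which 7 were called lower and 1 was not tested. Of all mRNA genes tested, 93.2% were called and 48.8% were called lower. The listed fibroblast and contractile markers summed to 23.9 to 29.8 FPKM in bufotalin and 84.2 to 88.7 FPKM in control. The 2 endothelial markers listed of 6 summed to 8.46 to 10.6 FPKM in bufotalin and 32.2 to 33.7 FPKM in control, with EGFL7 lower and CDH5 higher. The 2 leukocyte markers listed of 7 summed to 3.97 to 6.09 FPKM in bufotalin and 3.16 to 3.45 FPKM in control, with ITGAM at 0 in bufotalin. HBB was the erythroid marker listed of 5, at 0.367 to 0.552 FPKM in bufotalin and 0.470 to 13.4 FPKM in control. The part of cell makeup in the lncRNA differences was not tested. The median FPKM of the mRNA table was 6.10 to 6.26 in bufotalin and 7.80 to 8.08 in control, and 272 to 290 of the 536 lncRNA transcripts were listed at 0 in the bufotalin libraries, against 167 to 186 in the control libraries.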

How the data were processed

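The 3 bufotalin and 3 control total RNA libraries were prepared with a NEBNext Ultra kit, per the labels' protocols. The submitters' processing notes name CASAVA 1.8, fastp, HISAT2 2.0.5, featureCounts 1.5.0-p3, DESeq2 1.20.0 and GRCh38. The sources used here do not say which tool made which values, how features were selected or whether strand was kept. The authors deposited FPKM values per lncRNA transcript and per mRNA gene, for features selected as different. Such values keep no depth, so no floors or intervals are given. The small RNA libraries were not used here.

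limma 3.58.1 (R 4.3.3; trended, robust eBayes, two-sided, Benjamini-Hochberg over each whole table, threshold 0.05) compared bufotalin with control, without a replicate block, on log2(FPKM + 0.1) in the lncRNA table (mean FPKM of 0.1 or more) and on log2(FPKM + 1) in the mRNA table (mean FPKM of 0.5 or more). The scripts were tested on simulated data. Python 3.11.15, pandas 2.3.3, numpy 2.4.6 and matplotlib 3.10.9 were also used. The members and lists were chosen with earlier results of these data known. Named by rule were MALAT1, HAR1A, DGCR5, the called non-overlapping members with the most extreme fold changes, the most abundant members, those at 0 throughout a group, genes with several transcripts, partners in the mRNA table, the liver cancer lncRNAs and the processing genes of smallest p. Some items are not reported here. Other named genes, including all neighbours, were chosen after their values were seen. All 47 gene identifiers matched the reference names. Alternatives changed the pseudocount, FPKM minimum, scaling, limma options, replicate block and each library.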

Additional observations from a re-analysis of the deposited data

How the results depend on the processing

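Over 14 other settings for lncRNAs, 26 of the 30 members called kept their call wherever they were tested. The other 4 (FZD10-AS1-201, LINC00662-277, GMDS-DT-203 and LINC00623-206) lost it in at least 1, each of the 13 uncalled members was called in at least 1, and none changed sign. For the 35 members listed at 0 in all 3 bufotalin libraries, leaving out a bufotalin library could not move the fold change. The limma options and the replicate block could move no fold change. Those settings could change only the adjusted p. The number of members called ranged from 27 to 33 when 1 library was left out, that of all lncRNA transcripts from 322 to 340, of liver cancer lncRNAs from 4 to 5, of partner genes from 11 to 12 and of processing genes from 11 to 14.

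With a minimum mean of 0.5 FPKM, fewer transcripts could be tested. Called were 110 of 157 over all transcripts, 7 of 11 among the members and 2 of 2 among the liver cancer lncRNAs. With no minimum, 7 of 8 liver cancer lncRNAs were called, 5 lower and 2 higher. The median log2 fold change of the members, -2.11, became -4.99 with a pseudocount of 0.01, -0.46 with a pseudocount of 1, -1.99 with no minimum and -3.50 with the minimum of 0.5 FPKM, where the median of all transcripts tested was 2.25. It became -1.53 after quantile normalization (-1.17 for all transcripts) and ranged from -2.51 to -2.11 when 1 library was left out. Scaling to equal medians of the lncRNA table was not run, because the bufotalin medians are 0. Scaling by the medians of the mRNA table, chosen after seeing the data, gave -2.21 (-1.66 for all transcripts).

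In the mRNA table the median of all genes tested was 0.13, against 0.49 with libraries scaled to equal medians, and -0.27 to 0.18 when 1 library was left out. After quantile normalization the log2 fold changes of SON and HNRNPK became -0.027 and -0.086.

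Replicate numbers are shared by the groups. Deviations of same-numbered libraries correlated at -0.0067 to 0.0057 in the lncRNA table and -0.052 to 0.026 in the mRNA table. No deviation shared by number was seen, but this cannot settle whether the samples were paired. With a replicate block, 335 lncRNA transcripts, 29 members, 12 partner genes and 14 processing genes were called, the last as 13 higher and 1 lower. GMDS-DT-203, SRSF5 and PNN lost their calls with the block (adjusted p = 0.0597, 0.0536 and 0.0629), while SON was called higher and METTL16 lower (adjusted p = 0.0477 and 0.0421). Depth could not be read from FPKM, so differences between members near 0 could not be weighed by it.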
